A study of Mus musculus with 477 samples.

Results

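Tumor cells of double mutant mice, in which Cre acts on floxed *Brca1* and floxed *Trp53* in the mammary epithelium, were set against mammary luminal cells of mice labelled as the same genotype. The comparison holds 81 tumor cells (30 from the mouse Br53T1 and 51 from the mouse Br53T2) and 92 luminal cells (39 from the virgin mouse vBr53L and 53 from pBr53L, a mouse at day 12.5 of pregnancy), out of 477 cells from 11 mice. The cells were chosen by the source label of each cell, and no measured value was used. All 4 mice were female and on a mixed C57BL/6 and 129/Sv background. The study's sample list gives all 4 as MMTV-Cre, *Brca1* fl/fl and *Trp53* fl/+, with 1 floxed *Trp53* allele, while its account of flow cytometry on mice of the same name gives *Trp53* fl/fl. The luminal mice carried the ROSA mT/mG reporter, which turns green where Cre has acted and was used in their sort, and the sources used here do not state for each tumor mouse whether it did. The luminal mice were 3 to 4 months old. The tumor mice were older by the study's list of tumor-free times, and their tumors were taken at about 1 cm, so age and tissue cannot be told apart. The main test below also used the other mice of the series. Tumors BrT1 and BrT2 and luminal mice vBrL (virgin), pBrL-1 and pBrL-2 (pregnant) were *Brca1*-deficient with wild type *Trp53*. Luminal mice v53L (virgin) and p53L (pregnant) were *Trp53* mutant with no floxed *Brca1*.

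The tumor and luminal cells were not gated alike. After depletion of blood and endothelial cells, luminal cells were sorted as DAPI- CD24Hi CD29Lo mGFP+ and tumor cells as DAPI- CD24+, with no gate on CD29 or on the reporter. MMTV-Cre is active in mammary epithelium but not in every cell, and whether the tumors kept a working *Trp53* allele was not tested. Each label stands for 1 animal, so virgin and pregnant luminal cells came from 1 mouse each. The cells were captured on Fluidigm C1 chips, on which full-length cDNA is made from 1 cell per chamber. Br53T1 was alone on chip SC2, Br53T2 was on SC6 and both luminal mice were on SC7, so chip, gate and tissue cannot be told apart.

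Luminal cells line the ducts and alveoli of the mammary gland. Under prolactin, which signals through the transcription factor STAT5, alveolar luminal cells make caseins, whey proteins and milk fat in pregnancy and lactation, while other luminal cells carry the estrogen and progesterone receptors. A basal layer of contractile cells, marked by keratins 5 and 14, p63 and smooth muscle proteins, surrounds them. BRCA1 acts in the repair of DNA double-strand breaks by homologous recombination, and p53 halts or kills cells with damaged DNA.

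Summed over their cells, the 4 mice had 54886524 to 100681169 reads. Single cells had between 344970 and 2898382 reads, with 1853 to 8299 genes found in each. Levels are given as CPM, reads scaled to a total of 1000000 over all cells of a mouse, or over 1 cell where a cell is described. *Krt18*, a keratin of luminal cells, reached at least 100 CPM in all 39 vBr53L cells, all 53 pBr53L cells and all 30 Br53T1 cells. In Br53T2, 13 of 51 cells had *Krt14*, a basal keratin, at that level and *Krt18* below it. The deleted genes were looked at first. *Brca1* had 25.6 CPM in Br53T1, 21.7 CPM in Br53T2, 29.9 CPM in vBr53L and 31.5 CPM in pBr53L, with a log2 fold change of tumor over luminal of -0.64 ± 1.47 (± SE) and an edgeR adjusted p of 0.968. *Trp53* had 67.2 CPM in Br53T1, 140.4 CPM in Br53T2, 164 CPM in vBr53L and 243 CPM in pBr53L (-1.24 ± 1.02, edgeR adjusted p = 0.837). Reads of exons outside the deleted part count toward both genes, so these levels do not check the deletions.

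No gene passed the main test. In the edgeR quasi-likelihood fit over all 11 mice, 0 of 15191 genes had a Benjamini-Hochberg adjusted p under 0.05, a share of 0% in both directions. An unadjusted p under 0.05 was found for 748 genes, 438 higher in tumors (2.88% of genes tested) and 310 lower (2.04%). DESeq2 called 470 genes on the same counts, 317 higher (2.09%) and 153 lower (1.01%), but in 136 of the 470 the tumor and luminal mice overlapped, and no statement below rests on the DESeq2 calls. Limma on the mean over cells called 2, *Sparc* and *Slc28a3*. The p-values measure the spread between mice of a group. Virgin and pregnant luminal mice share a group, so the stage is part of that spread. An exact permutation test of 2 mice against 2 cannot give a p below 0.333. The genes are therefore given by their level in each mouse, as higher or lower where both tumors lay outside both luminal mice and as overlapping otherwise. By that measure 3784 genes were higher in tumors (24.9%), 1814 were lower (11.9%) and 9593 overlapped (63.1%), and the counts of each gene list below are to be read against these shares. The split depended on the scaling. On CPM divided by the TMM factor of each mouse, a scaling added after the data were seen, 2954 genes were higher (19.4%) and 2605 lower (17.1%). The nearest tumor and luminal mice were at least 4 times apart, after 1 CPM was added to each, in 340 genes higher (2.24%) and 84 lower (0.553%) in tumors, or in 273 and 104 on CPM divided by the TMM factor. Single mice set the size of many differences. Without 1 of the 4 mice, the fold change moved by more than 1.5 times in at least 1 case for 71 of 92 named genes without overlap. The median edgeR log2 fold change of all genes tested was 0.07 with TMM factors and 0.34 with library size alone. In bulk sums of this kind, fewer cells that make a transcript and less transcript per cell cannot be told apart, so the number of cells with a read is added for the main genes, counted in each case after every cell had been thinned to 100000 reads.

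The milk protein genes were lower in both tumors for all 8 of 8 genes tested, 5 of them at least 4 times apart. Their summed level was 3687 CPM in Br53T1 and 3799 CPM in Br53T2, against 34886 CPM in vBr53L and 132555 CPM in pBr53L. The virgin luminal mouse was thus already above both tumors. Prolactin-activated STAT5 binds motifs of the form TTCNNNGAA, and the promoters of this list that hold one are shown as the 250 bases before the gene, from RefSeq on GRCm38.p6, 5′ to 3′ on the strand of the gene with the motif in capitals. *Csn1s1* (alpha-S1-casein, plus strand) lies at chr5:87665958-87666207, *Csn2* (beta-casein, minus strand) at chr5:87699426-87699675 and *Glycam1* (a mucin-like milk protein, minus strand) at chr15:103565082-103565331.
*Csn1s1*: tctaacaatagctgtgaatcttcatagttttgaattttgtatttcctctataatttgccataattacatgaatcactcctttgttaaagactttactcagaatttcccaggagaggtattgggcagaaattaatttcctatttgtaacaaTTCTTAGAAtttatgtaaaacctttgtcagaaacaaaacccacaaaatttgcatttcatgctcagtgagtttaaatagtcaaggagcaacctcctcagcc
*Csn2*: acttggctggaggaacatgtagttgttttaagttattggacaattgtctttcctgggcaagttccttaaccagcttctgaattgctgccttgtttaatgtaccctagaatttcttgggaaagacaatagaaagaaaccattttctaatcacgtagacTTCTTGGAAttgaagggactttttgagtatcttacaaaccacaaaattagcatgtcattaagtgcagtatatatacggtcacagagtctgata
*Glycam1*: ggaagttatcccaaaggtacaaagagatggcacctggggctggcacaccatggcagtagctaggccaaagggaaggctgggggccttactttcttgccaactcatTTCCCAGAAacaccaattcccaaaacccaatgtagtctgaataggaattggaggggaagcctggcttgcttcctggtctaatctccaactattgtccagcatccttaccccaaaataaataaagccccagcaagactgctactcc
The motif reads alike on both strands. It began 100 bases before the gene in *Csn1s1*, 93 in *Csn2* and 145 in *Glycam1*. RefSeq promoters were found for 6 of the 8 genes, not for *Csn1s2b* and *Csn3*, and 3 of the 6 held the motif, against 7.02% of 32851 promoters. A match is a run of letters, not a measured site.

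Beta-casein separated the mice widely. *Csn2* had 25.2 CPM in Br53T1, 873 CPM in Br53T2, 11616 CPM in vBr53L and 46823 CPM in pBr53L (-6.30 ± 1.80, edgeR adjusted p = 0.798). The tumors were also far from each other. *Csn1s1* had 603 and 879.8 CPM in the tumors and 6778 and 23877 CPM in the luminal mice (-4.65 ± 1.92), where values are given in the order Br53T1, Br53T2, vBr53L and pBr53L here and below. *Csn1s2a*, another casein, had 28.02 and 406 CPM in the tumors and 5297 and 36447 CPM in the luminal mice (-6.87 ± 1.93), and 1 cell gave all of its Br53T1 reads and 98.9% of its Br53T2 reads. *Csn3*, kappa-casein, which keeps casein micelles in solution, had 3019 and 1634 CPM in the tumors and 11145 and 19699 CPM in the luminal mice (-3.00 ± 1.70). It was the milk protein gene with the highest level in both tumors. *Wap*, whey acidic protein (chromosome 11, 6635482 to 6638637, minus strand), had 0.0364 and 0.231 CPM in the tumors and 26.3 and 431 CPM in the luminal mice (-10.95 ± 3.35). *Glycam1* had 0 and 0.0881 CPM in the tumors and 5.96 and 5044 CPM in the luminal mice (-15.89 ± 5.50), and within the luminal cells it was mainly a transcript of the pregnant mouse.

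The milk transcripts were spread over the cells of the tumors in different ways. At that depth, *Csn3* was read in all 30 Br53T1 cells but in 26 of 51 Br53T2 cells, and in 38 of 39 vBr53L and 53 of 53 pBr53L cells. *Csn2* was read in 1 of 30 Br53T1 cells (3.33%, exact 95% binomial interval 0.0844 to 17.2%) and in 16 of 51 Br53T2 cells (31.4%, 19.1 to 45.9%). It was read in 37 of 39 vBr53L cells and 53 of 53 pBr53L cells. These intervals, like the floors used below, cover counting error only. In Br53T1, *Csn3* was thus read in every cell and *Csn2* in 1, whereas in Br53T2 each was read in some of the cells.

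**Figure D1:**
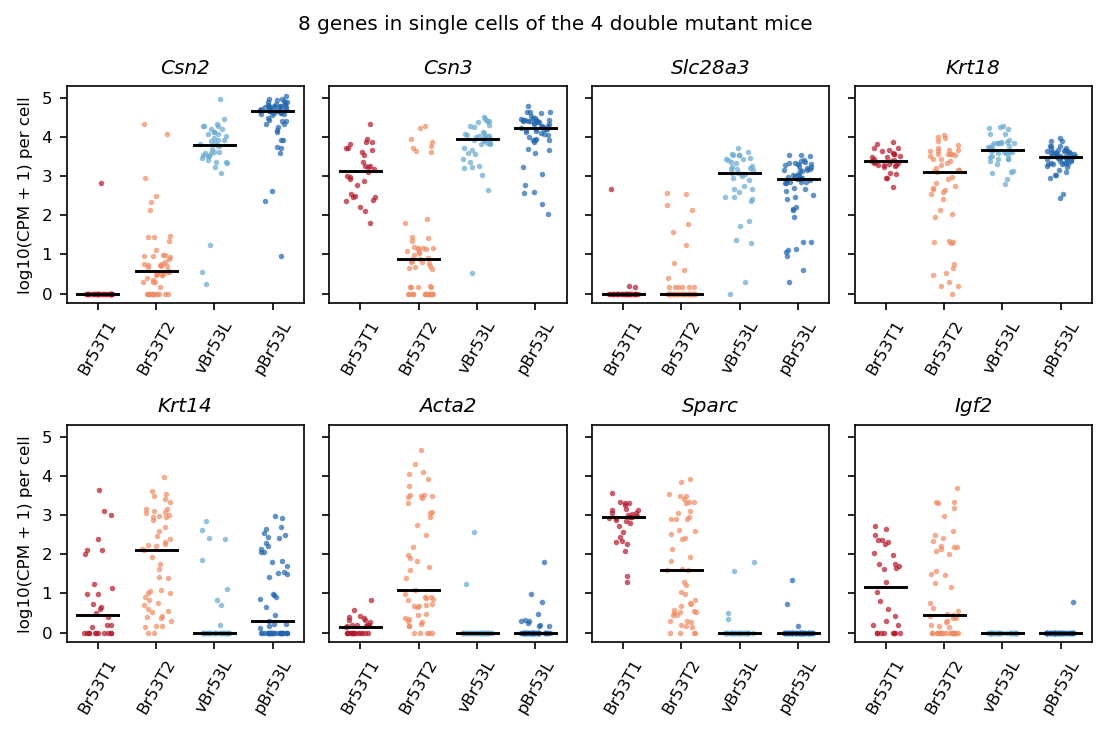
Level of 8 genes in single cells as log10 of CPM plus 1 (vertical axis) for the 30, 51, 39 and 53 cells of Br53T1, Br53T2, vBr53L and pBr53L. Each point is a cell and each bar the median of a mouse. *Csn3* is present in nearly all Br53T1 and luminal cells, *Csn2* and *Slc28a3* are at 100 CPM or more in 1 Br53T1 cell each, and *Acta2* at that level is found in 19 Br53T2 cells.

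Seurat divided the double mutant cells into 5 clusters. Cluster 5 was all 30 Br53T1 cells and no others. Cluster 1 held 40 Br53T2 cells with 2 vBr53L cells and 1 pBr53L cell, and was led by *H19*, *Krt17*, *Sprr1a*, *Krt6a* and *Acta2*. Cluster 2 held 30 vBr53L, 4 Br53T2 and 2 pBr53L cells and was led by *Retnla*, *Lyz2*, *Fcrls*, *Plek* and *Fcgbp*, the first 4 of which are genes of macrophages and other leukocytes. Its immune markers averaged 696 CPM per cell, against 17.4 to 55.1 CPM in the other clusters. Most of that came from 1 pBr53L cell, the cell with the highest level of the leukocyte gene *Ptprc*. Without it, a comparison added after the data were seen, the average was 67.1 CPM, 1 of 35 cells had at least 100 CPM of immune markers, and 3 of the first 10 genes were still among the first 10, *Fcgbp*, *Saa2* and *Ankrd1*. Cluster 3 was 33 pBr53L cells alone. Cluster 4 mixed 7 Br53T2, 7 vBr53L and 17 pBr53L cells and was led by genes of dividing cells such as *Hmmr*, *Mki67* and *Cdc20*. In all, 11 of 81 tumor cells lay in clusters in which most cells came from the luminal mice, 4 in cluster 2 and 7 in cluster 4, and all came from Br53T2. The number was 14 with 4000 variable genes, 11 at a resolution of 1.0 and 10 with 20 principal components.

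These 11 cells carried most of the milk transcripts of Br53T2. They gave 20.6% of its reads and 94.4% of its milk protein reads, at 17404 CPM against 267 CPM in the other 40 cells. *Csn2* had 4121 CPM in the 11 cells and 29.7 CPM in the other 40. *Csn3* had 7173 CPM and 196 CPM in the same order. Other genes had the opposite order, with *Sparc* at 129 CPM in the 11 cells and 955 CPM in the other 40, *Igf2* at 2.14 and 411 CPM, and basal markers at 1200.3 and 7833 CPM. The clusters were built on these genes, so the values describe the cells and test nothing. Br53T2 shared its chip with luminal cells of the pregnant mouse pBrL-2 and its sort did not use the reporter, and the part of either in these 11 cells was not tested.

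**Figure D2:**
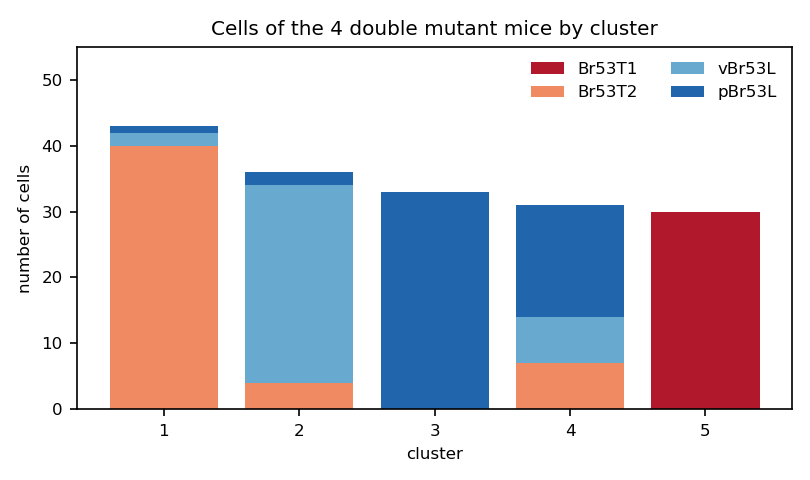
Number of cells of each mouse in the 5 clusters of double mutant cells, as stacked bars. Br53T1 makes up cluster 5 alone, 40 of 51 Br53T2 cells are in cluster 1, and the other 11 lie with cells of the luminal mice in clusters 2 and 4.

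Genes of milk fat were lower in tumors for 13 of 20 genes, higher for 1 and overlapping for 6, with a median log2 fold change of -2.13. *Cel*, a lipase secreted into milk (chromosome 2, 28555795 to 28563403, minus strand), had 0 CPM in Br53T1, 0.0550 CPM in Br53T2, 225 CPM in vBr53L and 108 CPM in pBr53L. Its log2 fold change was -12.56 ± 1.60 with an edgeR adjusted p of 0.118, and it was read in no thinned tumor cell, 14 of 39 vBr53L cells and 20 of 53 pBr53L cells. *Fabp3*, which binds fatty acids (chromosome 4, 130308595 to 130315463, plus strand), had 0 and 0.661 CPM in the tumors and 57.2 and 685 CPM in the luminal mice (-10.37 ± 3.41). All of its tumor reads came from 1 Br53T2 cell. *Btn1a1*, butyrophilin, a coat protein of milk fat globules (chromosome 13, 23456992 to 23465901, minus strand), had 0 and 3.52 CPM in the tumors and 127 and 478 CPM in the luminal mice (-7.69 ± 2.09). The fatty acid receptor gene *Cd36* had no read in the tumors, 7.31 CPM in vBr53L and 1314 CPM in pBr53L. Against a floor of 3 reads over both tumors it was at least 38237-fold lower there. In vBr53L, 99.8% of its reads came from 1 cell, so *Cd36* marked the pregnant mouse.

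The enzymes of fatty acid synthesis were mixed. *Fasn*, fatty acid synthase, had 171 and 63.96 CPM in the tumors and 259 and 594 CPM in the luminal mice (-2.14 ± 0.91). *Acly* and *Acaca*, which supply its substrates, overlapped, though *Acly* was lower on CPM divided by the TMM factor. The desaturase genes had opposite orders: *Scd1* had 550.4 and 585 CPM in the tumors and 1446 and 1016 CPM in the luminal mice (-1.38 ± 0.80) and *Scd2* had 159 and 119 CPM in the tumors and 26.95 and 7.22 CPM in the luminal mice (2.77 ± 1.09). *Scd2* was the gene of this list that was higher in tumors.

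Among 12 lactation transporters and gap junction genes, 5 were lower in tumors and 7 overlapped. *Slc28a3*, a nucleoside transporter (chromosome 13, 58545399 to 58610877, minus strand), had 17.8 CPM in Br53T1, 24.6 CPM in Br53T2, 1606 CPM in vBr53L and 1091 CPM in pBr53L (-6.25 ± 1.54, edgeR adjusted p = 0.741). Limma on the mean over cells called it, at -5.99 with an adjusted p of 0.0102, and over all alternatives its adjusted p ran from 1e-13 to 1. *Slc28a3* reads were found in 1 of 30 Br53T1, 8 of 51 Br53T2, 36 of 39 vBr53L and 48 of 53 pBr53L cells. Unlike the caseins, its level was not lower in the virgin than in the pregnant luminal mouse. The connexin gene *Gjb6* had 0 and 3.64 CPM in the tumors and 22.8 and 320.4 CPM in the luminal mice (-6.84 ± 2.98), while the connexin gene *Gjb2* overlapped at 3.26 and 72.5 CPM in the tumors and 54.96 and 159 CPM in the luminal mice.

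**Figure D3:**
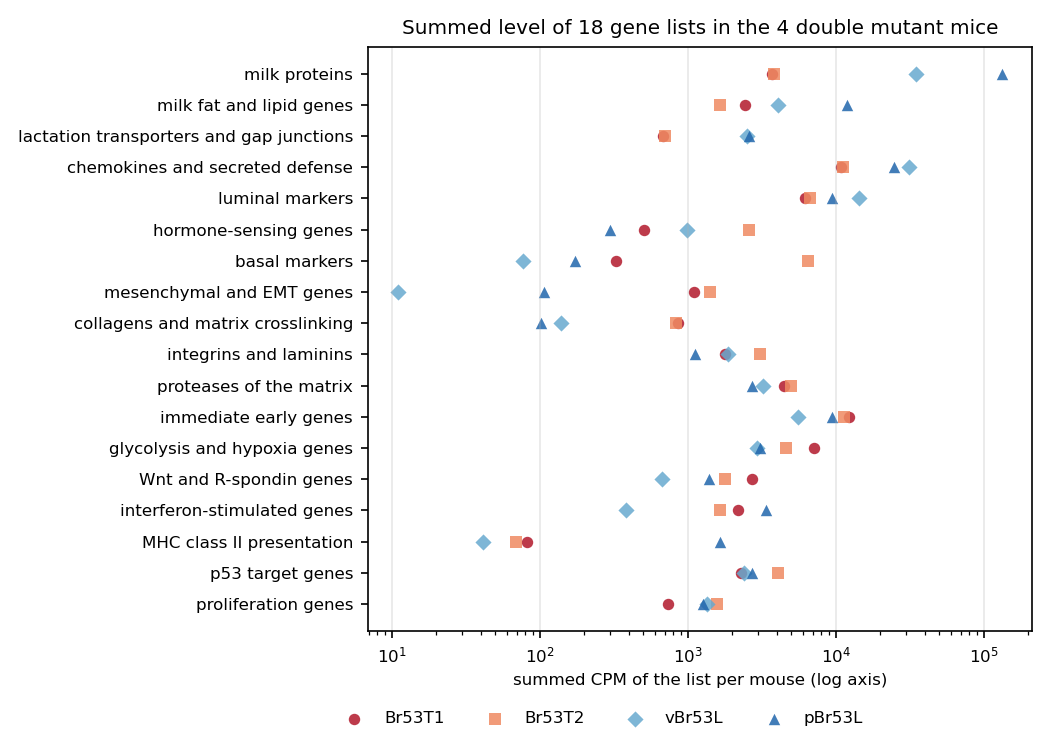
Summed CPM of 18 gene lists on a log axis, with 1 point for each of the 4 double mutant mice. Milk proteins are lower in both tumors than in both luminal mice, basal, EMT and collagen genes are higher in both, with most of the EMT sum in *Sparc*, and the basal sum reaches 6466 CPM in Br53T2 against 328 CPM in Br53T1.

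Luminal markers were lower in tumors for 4 of 7 genes and overlapped for 3, with a median log2 fold change of -1.15. *Krt8* had 925 and 880.2 CPM in the tumors and 2491 and 1754 CPM in the luminal mice (-1.50 ± 0.68), and its partner *Krt18* had 2747 and 2453 CPM in the tumors and 5664 and 3256 CPM in the luminal mice (-1.04 ± 0.76). *Krt19* had 87.98 and 818 CPM in the tumors and 1303 and 837 CPM in the luminal mice, with Br53T1 far below the other 3 mice. The adhesion genes *Epcam* and *Cdh1* overlapped on CPM and were lower in tumors on CPM divided by the TMM factor, which made 6 of 7 luminal markers lower. Of 13 progenitor and alveolar regulators, 3 were higher, 2 lower and 8 overlapped, or 1 higher and 3 lower on CPM divided by the TMM factor. *Elf5*, a transcription factor of the alveolar fate, had 23.98 and 72.96 CPM in the tumors and 170.2 and 456 CPM in the luminal mice (-2.97 ± 2.09), and the receptor gene *Kit* had 35.6 and 62.6 CPM in the tumors and 119 and 154 CPM in the luminal mice (-1.74 ± 1.58). *Gata3*, which maintains luminal fate, had 429 and 355 CPM in the tumors and 327 and 281 CPM in the luminal mice (0.10 ± 0.55), and *Stat5a* overlapped, while on CPM divided by the TMM factor *Gata3* overlapped and *Stat5a* was lower.

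Basal markers were higher in tumors for 5 of 12 genes, lower for none and overlapping for 7, with a median log2 fold change of 7.19. Their sum was 328 CPM in Br53T1, 6466 CPM in Br53T2, 77.4 CPM in vBr53L and 174 CPM in pBr53L, so most of the difference lay in 1 tumor. *Trp63*, the p63 transcription factor of basal cells, had 32.2 and 133 CPM in the tumors and 0.0294 and 0.0695 CPM in the luminal mice (10.37 ± 2.82). It was read in 10 of 30 Br53T1 and 31 of 51 Br53T2 cells, and in 0 of 39 and 0 of 53 thinned luminal cells, which allow shares of up to 9.03% and 6.72% by the exact interval. *Myl9*, a myosin light chain of smooth muscle (chromosome 2, 156775420 to 156781658, plus strand), had 40.8 and 241 CPM in the tumors and no read in the luminal mice, at least 9324-fold higher against 3 reads over both luminal mice. *Krt14* had 189.7 and 643 CPM in the tumors and 45.4 and 102 CPM in the luminal mice (2.22 ± 2.40). *Krt17* had 51.6 and 1754 CPM in the tumors and 18.2 and 2.80 CPM in the luminal mice, with 86.3% of its Br53T1 reads in 1 cell.

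Some contractile genes were mainly transcripts of Br53T2. *Acta2*, smooth muscle actin, had 0.729 CPM in Br53T1, 2508 CPM in Br53T2, 5.79 CPM in vBr53L and 1.05 CPM in pBr53L. The calponin gene *Cnn1* had 233 CPM in Br53T2 and no read in the other 3 mice. Of the 19 Br53T2 cells with at least 100 CPM of *Acta2*, 11 had *Krt18* below 100 CPM. The tumor sort set no CD29 gate, by which basal cells are told from luminal cells, and its part in these values was not tested.

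Of 10 hormone-sensing genes, 8 overlapped, 1 was higher in tumors and 1 lower. Br53T2 had the highest and Br53T1 the lowest level of the 4 mice for the genes of the estrogen, prolactin and progesterone receptors. *Esr1* had 0.0182 and 116 CPM in the tumors and 51.8 and 42.5 CPM in the luminal mice. *Prlr* had 94.9 and 1161 CPM in the tumors and 525 and 167 CPM in the luminal mice, and *Pgr* had 0 and 30.9 CPM in the tumors and 5.63 and 2.80 CPM in the luminal mice. *Ly6a*, which encodes Sca-1, was the gene higher in tumors, at 406 and 762 CPM in the tumors and 111 and 43.6 CPM in the luminal mice (2.67 ± 2.03).

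*Sparc* had the widest gap between tumors and luminal mice of the genes named by their gap. It encodes osteonectin, a collagen-binding matrix protein (chromosome 11, 55394500 to 55423183, minus strand). *Sparc* had 897 CPM in Br53T1, 785 CPM in Br53T2, 3.44 CPM in vBr53L and 0.526 CPM in pBr53L (8.48 ± 1.49, edgeR adjusted p = 0.462). Limma on the mean over cells gave 8.61 with an adjusted p of 0.0130, and over all alternatives its adjusted p ran from 2.32e-18 to 0.725. It was read in all 30 Br53T1 cells and 35 of 51 Br53T2 cells, and in 2 of 39 and 2 of 53 luminal cells. The cells that carried it differed between tumors. All 28 Br53T1 cells with at least 100 CPM of *Sparc* had *Krt18* at that level too, against 8 of 21 such cells in Br53T2.

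Mesenchymal genes went both ways, though the lower ones lay at low levels. Of 11 genes of the epithelial-to-mesenchymal transition (EMT), *Sparc* among them, 4 were higher in tumors, 3 lower and 4 overlapped, with a median log2 fold change of 2.11. Without *Sparc*, which had also been picked for its gap, 3 were higher and 3 lower of 10, with a median of 1.53. *Sparc* made up most of the summed level of the list in both tumors. Without it, a sum added after the data were seen, the list had 204 CPM in Br53T1, 632 CPM in Br53T2, 7.54 CPM in vBr53L and 105 CPM in pBr53L. The 3 lower genes are part of the 7.54 CPM of vBr53L, and both tumors lay below that mouse in each. *Vim*, the filament protein vimentin, had 156 and 212 CPM in the tumors and 0.970 and 30.3 CPM in the luminal mice (3.26 ± 1.86), and without cells bearing markers of other types, described below, its log2 fold change was 5.25 and its pBr53L level 7.11 CPM. The actin-bundling gene *Fscn1* had 12.8 and 33.8 CPM in the tumors and 0.706 and 0.139 CPM in the luminal mice (5.54 ± 2.02), and the repressor gene *Snai1* had 30.2 and 8.85 CPM in the tumors and 0.0588 and 0 CPM in the luminal mice (9.11 ± 3.18). Fibronectin was a transcript of 1 tumor. *Fn1* had 2.90 and 357 CPM in the tumors and 0.0147 and 67.96 CPM in the luminal mice, and 98.1% of its pBr53L reads came from 1 cell. *Zeb2*, a repressor of epithelial genes, was lower in tumors at 0.0182 and 0.0881 CPM in the tumors and 4.26 and 4.12 CPM in the luminal mice, but 99.3% of its vBr53L reads came from 1 cell. Without cells bearing markers of other types, the *Zeb2* level of pBr53L was 0.683 CPM. Epithelial junction genes were mixed, with 4 of 14 higher, 2 lower, 8 overlapping and a median log2 fold change of 0.02, or 1 higher and 2 lower on CPM divided by the TMM factor.

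Collagen and matrix crosslinking genes were higher in tumors for 14 of 24 genes, lower for none and overlapping for 10. Their median log2 fold change was 5.27, or 4.32 with the 7 genes without a read in one group set at their bounds. *Col1a1* and *Col1a2*, the chains of collagen I, had at most 1.74 CPM in any of the 4 mice. Other collagens were measured at higher levels in the tumors. *Col18a1* (chromosome 10, 77052178 to 77166548, minus strand) had 153 and 159 CPM in the tumors and 0 and 0.159 CPM in the luminal mice (10.55 ± 2.85), and was read in 22 of 30 and 30 of 51 tumor cells and in no thinned luminal cell. *Col4a1* had 75.6 and 266 CPM in the tumors and 39.9 and 12.5 CPM in the luminal mice (2.45 ± 1.62). *Col11a1* had 159 and 43.1 CPM in the tumors and 0.809 and 0.0397 CPM in the luminal mice (7.66 ± 2.59).

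Genes of collagen-modifying proteins were among them. *P4ha1*, a prolyl hydroxylase, had 90.8 and 88.4 CPM in the tumors and 5.19 and 6.12 CPM in the luminal mice (3.72 ± 1.27). *Plod2*, a lysyl hydroxylase, had 16.7 and 36.6 CPM in the tumors and 0 and 0.00993 CPM in the luminal mice, and its 1 luminal read gives a ratio of 4906 with an exact 95% counting interval of 880.1 to 193822. *Aebp1*, a collagen-binding protein (chromosome 11, 5861947 to 5872088, plus strand), had 45.6 and 34.6 CPM in the tumors and no read in the luminal mice, at least 2177-fold higher. Its reads were found in 19 of 30 and 17 of 51 tumor cells. *Loxl3*, a lysyl oxidase, was mainly a transcript of Br53T1, at 67.7 CPM there, 0.936 CPM in Br53T2 and no read in luminal cells. *Aebp1*, *Plod2*, *Loxl3*, *Fscn1*, *Slc28a3*, *Fabp3* and *Cd36* are among 26 tested genes that the study knocked out. Of these, 14 were higher, 9 lower and 3 overlapped, but the genes had been picked on these samples, so the count is not independent evidence.

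Integrins, laminins and matrix proteases were also higher in tumors in part. Of 19 integrin and laminin genes, 11 were higher, none lower and 8 overlapped, with a median log2 fold change of 1.45. *Itgb1*, the most shared beta chain, had 547 and 377 CPM in the tumors and 244 and 167 CPM in the luminal mice (0.91 ± 0.51). *Lama3*, a laminin chain of epithelial basement membranes, had 46.9 and 163 CPM in the tumors and 1.69 and 0.00993 CPM in the luminal mice (6.71 ± 3.06). Of 20 protease and inhibitor genes, 8 were higher, none lower and 12 overlapped. *Mmp14*, a membrane-bound metalloprotease, had 132 and 111 CPM in the tumors and 39.7 and 1.62 CPM in the luminal mice (2.32 ± 1.56), and *Mmp2*, which it activates, had 62.4 and 11.7 CPM in the tumors and 0.0147 and 0 CPM in the luminal mice (11.93 ± 2.72). The size of the *Mmp2* fold change rests on 1 luminal read. The inhibitor gene *Timp3* had 79.7 and 182 CPM in the tumors and 0.956 and 5.22 CPM in the luminal mice (5.12 ± 2.26). Single cells dominated others: in Br53T2, 1 cell gave 98.3% of the *Mmp3* reads and 1 cell 99.8% of the *Mmp9* reads.

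**Figure D4:**
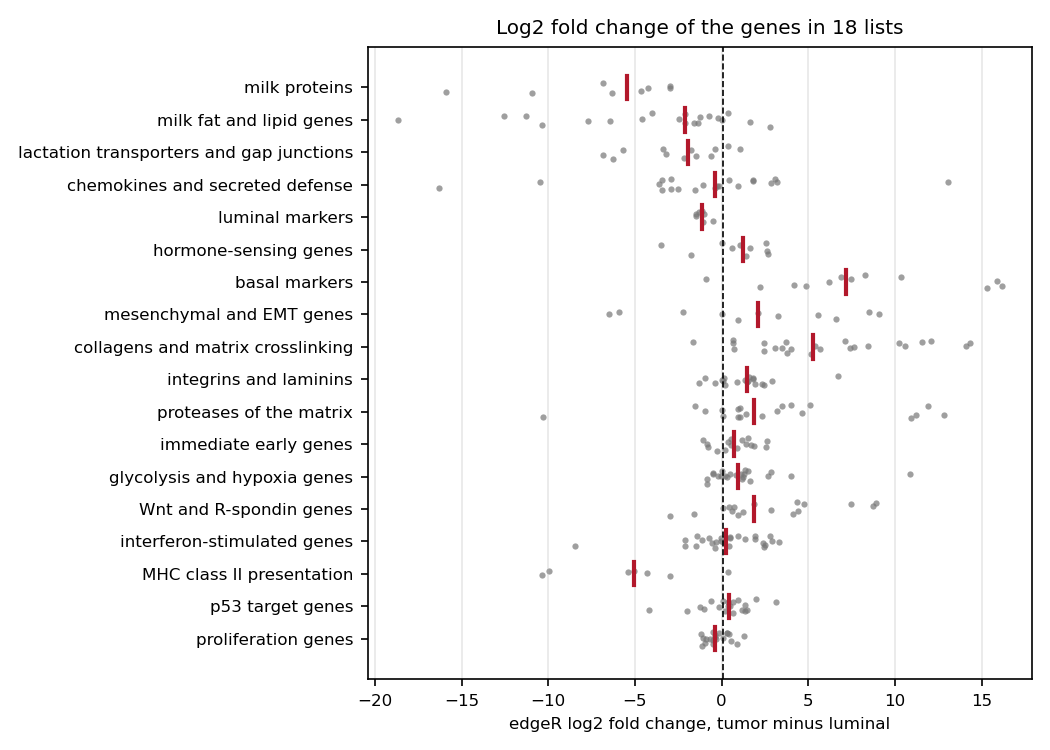
edgeR log2 fold change of tumor over luminal for the genes tested in 18 lists, with 1 point per gene, the list median as a red bar and the median of all genes tested (0.07) as a dashed line. List medians run from -5.48 in milk proteins to 7.19 in basal markers, and no gene passed an adjusted p under 0.05.

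The 12 genes with the widest gap in each direction were picked on these 4 mice, so their values describe the comparison and test nothing. Beside *Sparc*, *Col18a1*, *Myl9* and *Aebp1*, the genes higher in tumors included *Igf2*, a fetal growth factor (chromosome 7, 142650766 to 142666816, minus strand), at 79.1 CPM in Br53T1, 327 CPM in Br53T2, 0 CPM in vBr53L and 0.0993 CPM in pBr53L (11.57 ± 3.25). *Igf2* was read in 19 of 30 and 23 of 51 tumor cells and in no thinned luminal cell. *Ccnd2*, a D-type cyclin (chromosome 6, 127125162 to 127152193, minus strand), had 70.2 and 487 CPM in the tumors and 0 and 0.268 CPM in the luminal mice (10.68 ± 3.94). *Nt5e*, which encodes the ectonucleotidase CD73 (chromosome 9, 88327197 to 88372092, plus strand), had 366 and 60.8 CPM in the tumors and 0 and 0.0795 CPM in the luminal mice (11.95 ± 3.19). Br53T2 was the higher tumor in *Ccnd2* and Br53T1 in *Nt5e*. *Pir* (chromosome X, 164269371 to 164373011, plus strand), which encodes pirin, had 68.4 and 40.9 CPM in the tumors and 0.0147 and 0.109 CPM in the luminal mice (9.43 ± 1.73, edgeR adjusted p = 0.562). *Moxd1* had 139.8 and 766 CPM in the tumors and 3.07 and 0.0894 CPM in the luminal mice (7.93 ± 2.57), but its vBr53L reads all lay in cells with markers of other types, and without those cells its log2 fold change was 12.8. *Hmcn1*, a matrix protein of the hemicentin family, had 49.3 and 33.2 CPM in the tumors and 0 and 0.0397 CPM in the luminal mice, and *Pdlim2*, of the PDZ-LIM family, had 59.7 and 31.7 CPM in the tumors and 0 and 0.0497 CPM in the luminal mice. *Stmn2*, a microtubule regulator of neurons, had 33.6 and 36.8 CPM in the tumors and 0 and 0.00993 CPM in the luminal mice, but 91.7% of its Br53T1 and 52.6% of its Br53T2 reads came from 1 cell each.

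The genes lower in tumors included *Cel*, *Slc28a3*, *Fabp3*, *Btn1a1* and *Wap*. *Tmc5*, of the transmembrane channel-like family (chromosome 7, 118597297 to 118675086, plus strand), had 0 CPM in Br53T1, 0.0110 CPM in Br53T2, 39.6 CPM in vBr53L and 27.03 CPM in pBr53L (-12.23 ± 1.55, edgeR adjusted p = 0.118). With 1 tumor read, the ratio of luminal to tumor was 4679 with an exact 95% counting interval of 839.4 to 184826. It was read in few luminal cells, 3 of 39 and 11 of 53. *Prkaa2*, a catalytic subunit of AMPK, had 0 and 0.727 CPM in the tumors and 47.9 and 56.7 CPM in the luminal mice (-7.41 ± 2.17). *Atg4c*, an autophagy protease, had 0.802 and 1.23 CPM in the tumors and 33.7 and 30.9 CPM in the luminal mice (-5.25 ± 1.22). The virgin and pregnant luminal mice were close in *Atg4c* and in *Nxf7*, which had 0.0182 and 0.275 CPM in the tumors and 35.7 and 35.9 CPM in the luminal mice. *Rnase1*, a secreted ribonuclease, had no read in tumors and 70.8 and 12.7 CPM in the luminal mice, at least 1755-fold lower in tumors. *Spink5*, a protease inhibitor, had 0.328 and 0 CPM in the tumors and 21.5 and 48.8 CPM in the luminal mice, with 90.02% of its pBr53L reads in 1 cell.

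**Figure D5:**
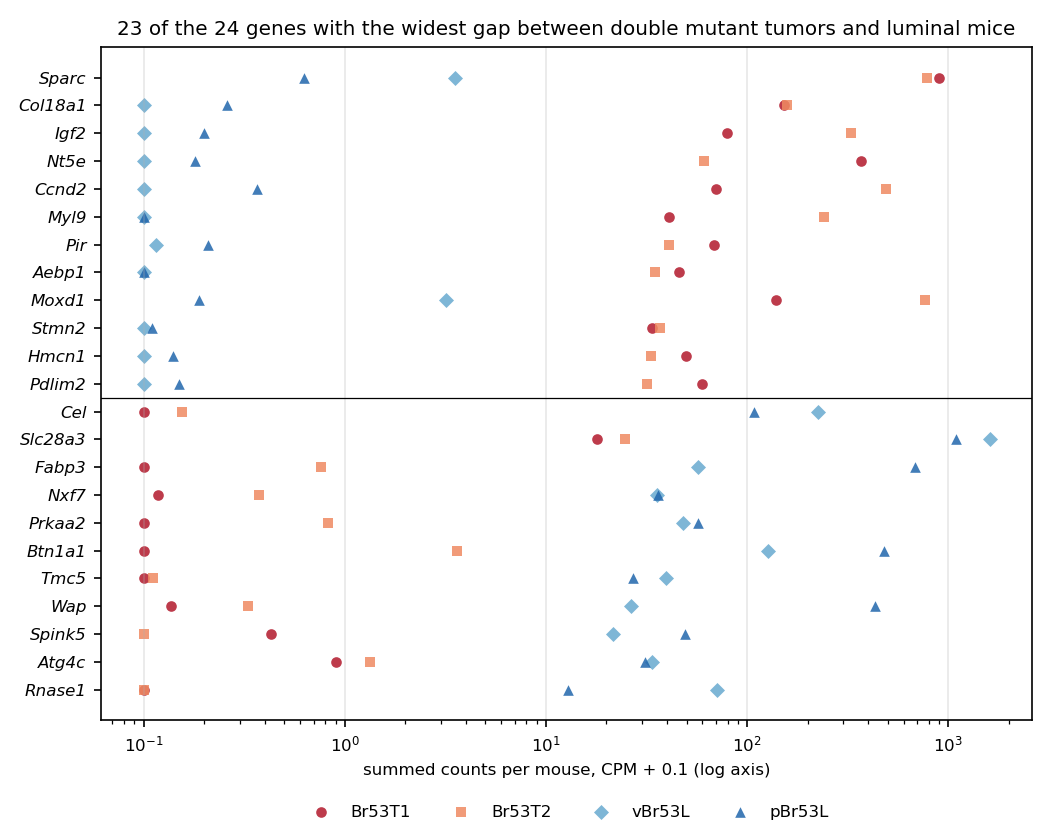
Level of 23 of the 24 genes with the widest gap as CPM plus 0.1 on a log axis, with 1 point for each of the 4 mice, 12 genes higher in tumors above the line and 11 lower below it. *Sparc* lies at 897 and 785 CPM in the tumors against 3.44 and 0.526 CPM in the luminal mice, and *Slc28a3* at 17.8 and 24.6 CPM against 1606 and 1091 CPM.

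The 24 genes were also read in mice that the rule did not use, the Brca1-deficient mice with wild type *Trp53* (tumors BrT1 and BrT2, luminal mice vBrL, pBrL-1 and pBrL-2). Both tumors lay above all 3 luminal mice in 9 of the 12 genes higher in double mutant tumors, where 15.6% of all genes tested did. Both lay below all 3 in 10 of the 12 lower genes, where 13.3% of all genes did, and none of the 24 had the opposite order. *Myl9* was among the exceptions, at 9.01 and 11.54 CPM in the tumors against 85.5 CPM in pBrL-1. The shares are those of all genes tested, not of genes with like levels. Tumor and luminal cells of the Br mice were sorted through the same different gates, so gate and tissue cannot be told apart there either. Basal markers summed to 33.7 CPM in BrT1 and 71.97 CPM in BrT2, below their 3 luminal mice at 112 to 669 CPM. The difference between the double mutant and the Br tumor effect passed an adjusted p under 0.05 in edgeR for 1 of 15191 genes (0.00658%), and an unadjusted p under 0.05 for 682 (4.49%). Of the 24 genes, 5 higher and 4 lower ones had an unadjusted p under 0.05 for that difference, and the lowest edgeR adjusted p was 0.990. On chip SC6 alone, Br53T2 over pBrL-2, which has wild type *Trp53*, gave log2 values of 2.82 to 13.6 in the 12 higher genes and -11.2 to -3.30 in the 12 lower ones, where 4 values rest on the floor of 3 reads. Br53T2 also enters the main comparison, so these values are not independent of it.

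Signalling genes of the Wnt family were higher in tumors for 10 of 17 genes, lower for 2 and overlapping for 5. The ligand gene *Wnt5a* had 143 and 66.3 CPM in the tumors and 0.779 and 7.57 CPM in the luminal mice (4.36 ± 2.11), and the ligand gene *Wnt7b* had 129.9 and 39.2 CPM in the tumors and 8.25 and 0.00993 CPM in the luminal mice (4.12 ± 2.79), or a log2 fold change of 6.28 without cells with markers of other types. *Nkd2*, an inhibitor of Wnt signalling that the study also knocked out, had 1093 CPM in Br53T1, 115 CPM in Br53T2, 0 CPM in vBr53L and 5.45 CPM in pBr53L (7.49 ± 3.46). It was read in all 30 Br53T1 cells. *Rspo1*, which amplifies Wnt signals, had the opposite order at 0 and 26.5 CPM in the tumors and 102 and 73.04 CPM in the luminal mice (-2.98 ± 2.61). *Axin2*, a common target of the pathway, stayed low at 4.39 and 1.23 CPM in the tumors and 0.147 and 0.0695 CPM in the luminal mice, with all of its Br53T1 reads in 1 cell. Of 11 Notch genes, 5 were higher, 1 lower and 5 overlapped. The ligand gene *Jag1* had 80.6 and 298 CPM in the tumors and 7.35 and 35.7 CPM in the luminal mice (2.86 ± 1.26), the target *Hey1* had 169.6 and 4.79 CPM in the tumors and 2.31 and 0 CPM in the luminal mice, and the target *Hes1* overlapped.

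Oncofetal genes, which are active in the embryo and low in most adult tissue, were higher in tumors for 5 of 12 genes, lower for 1 and overlapping for 6. Beside *Igf2*, *Igf2bp2*, an mRNA-binding protein, had 23.1 and 31.2 CPM in the tumors and 0.0294 and 1.70 CPM in the luminal mice (4.68 ± 2.21). The chromatin gene *Hmga2* had 25.1 and 9.21 CPM in the tumors and 0.132 and 1.52 CPM in the luminal mice (4.08 ± 2.10). *H19*, the imprinted RNA beside *Igf2*, had 701 CPM in Br53T2, no read in Br53T1 or vBr53L and 1 read in pBr53L, although *Igf2* was read in both tumors. Of 20 growth factor receptors and ligands, 3 were higher, 2 lower and 15 overlapped, among them *Egfr* and *Erbb2*, where 63.1% of all genes overlapped. *Fgfr1* had 1010.0 and 284 CPM in the tumors and 228 and 34.9 CPM in the luminal mice (2.05 ± 0.97), and *Tgfb2* was lower in tumors at 11.4 and 37.7 CPM in the tumors and 70.1 and 134 CPM in the luminal mice (-2.33 ± 0.86).

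Immediate early genes were higher in tumors for 8 of 16 genes, lower for 1 and overlapping for 7. Their sum was 12301 and 11307 CPM in the tumors and 5522 and 9510 CPM in the luminal mice. In the Br mice it was 10116 and 11116 CPM in BrT1 and BrT2. The Br luminal mice vBrL, pBrL-1 and pBrL-2 had 11574, 10438 and 11531 CPM, so the list sum did not separate tumors there. *Dusp1*, a phosphatase of MAP kinases, had 647 and 454 CPM in the tumors and 41.7 and 108 CPM in the luminal mice (2.59 ± 0.65, edgeR adjusted p = 0.771). *Fos* had 2951 and 2675 CPM in the tumors and 917 and 747 CPM in the luminal mice (1.49 ± 0.50), and *Ier3* had 1597 and 335 CPM in the tumors and 116 and 153 CPM in the luminal mice (2.57 ± 0.78). *Myc* was the gene lower in tumors, at 96.1 and 183 CPM in the tumors and 206 and 285 CPM in the luminal mice (-1.08 ± 0.55). These genes also respond to the dissociation of tissue. The heat shock list, which does too, had 2 of 10 genes higher and a sum of 2047 CPM in Br53T1, 7670 CPM in Br53T2, 2352 CPM in vBr53L and 2387 CPM in pBr53L, and the part of handling was not tested.

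Glycolysis and hypoxia genes were higher in tumors for 10 of 22 genes, lower for none and overlapping for 12, with a median log2 fold change of 0.95. *Aldoa*, an aldolase, had 1265 and 1229 CPM in the tumors and 431 and 389 CPM in the luminal mice (1.34 ± 0.48). *Hk2*, a hexokinase, had 1288 and 719 CPM in the tumors and 231 and 309 CPM in the luminal mice (1.62 ± 0.64), and *Pkm*, a pyruvate kinase, had 1441 and 566 CPM in the tumors and 430.1 and 352 CPM in the luminal mice (1.09 ± 0.52). *Ldha*, lactate dehydrogenase, overlapped.

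Of 21 chemokine and secreted defense genes, 5 were lower in tumors, 2 higher and 14 overlapped, against 11.9%, 24.9% and 63.1% of all genes. *Wfdc18*, a whey acidic protein family member, had 1527 and 4632 CPM in the tumors and 20540.2 and 18476 CPM in the luminal mice (-2.93 ± 1.80). Complement *C3* had 186 and 171 CPM in the tumors and 834 and 846 CPM in the luminal mice (-2.50 ± 0.73), and lactoferrin, *Ltf*, had 45.99 and 33.2 CPM in the tumors and 395 and 329 CPM in the luminal mice (-3.46 ± 1.24). In *C3* and *Wfdc18* the luminal mice lay close together. *Saa1*, an acute phase protein, was highest in the virgin mouse, at 0.292 and 0 CPM in the tumors and 328 and 15.4 CPM in the luminal mice (-10.50 ± 2.73). The neutrophil chemokine gene *Cxcl1* overlapped, being high in Br53T1 alone at 2522 and 217 CPM in the tumors and 312 and 340.2 CPM in the luminal mice, and so was *Cxcl2* at 1011 and 23.2 CPM in the tumors and 16.6 and 75.1 CPM in the luminal mice.

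Interferon-stimulated genes were higher in tumors for 7 of 26, near the share of all genes, lower for none and overlapping for 19. Their sum was 2181.9 CPM in Br53T1 and 1656 CPM in Br53T2, between 383 CPM in vBr53L and 3361 CPM in pBr53L. MHC class I presentation genes were lower in tumors for 4 of 12. *H2-K1* had 1685 and 1523 CPM in the tumors and 2176 and 2992 CPM in the luminal mice (-0.96 ± 0.44), and *B2m* had 2777 and 5305 CPM in the tumors and 5516 and 6515 CPM in the luminal mice (-0.84 ± 0.56). All 7 MHC class II genes overlapped, with sums of 82.4, 69.2, 41.1 and 1655 CPM. The pBr53L cell of cluster 2 with the most *Ptprc* had 2175 CPM of it and 22223 CPM of *H2-Aa* beside 272 CPM of *Krt18*, and without it the class II sum of pBr53L was 1018 CPM.

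Genes of the damage response and the cell cycle are set beside the shares of all genes, 24.9% higher, 11.9% lower and 63.1% overlapping. Of 20 p53 target genes, 7 were higher in tumors, 1 lower and 12 overlapped, with a median log2 fold change of 0.44, or 6 higher and 3 lower on CPM divided by the TMM factor. *Cdkn1a*, the p21 inhibitor of cell division, had 177 and 186 CPM in the tumors and 133 and 81.03 CPM in the luminal mice (0.50 ± 0.51), and *Mdm2*, which degrades p53, overlapped at 44.8 and 202 CPM in the tumors and 294 and 130.3 CPM in the luminal mice. Of 22 genes of DNA break repair, 2 were higher, 5 lower and 15 overlapped, or 1 higher and 7 lower on CPM divided by the TMM factor. The damage kinase gene *Atm* had 4.45 and 11.1 CPM in the tumors and 27.8 and 35.4 CPM in the luminal mice (-2.30 ± 1.02). *Trp53bp1*, which favours end joining, was higher at 101 and 89.8 CPM in the tumors and 23.6 and 47.1 CPM in the luminal mice (1.15 ± 1.03). Of 20 proliferation genes, 5 were lower, none higher and 15 overlapped. *Mki67* had 26.8 and 262 CPM in the tumors and 128 and 138 CPM in the luminal mice, so the tumors held both the lowest and the highest level. In Br53T2, the 11 cells that lay in clusters with cells of the luminal mice, 7 of them in the cluster led by genes of dividing cells, gave 47.9% of the reads of the proliferation list. Their sum was 3650 CPM, against 1030 CPM in the other 40 cells, 1350 CPM in vBr53L and 1266 CPM in pBr53L.

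Markers of other cell types were found in some cells. A sum of at least 1000 CPM of fibroblast, endothelial and immune markers was found in 0 of 30 Br53T1, 3 of 51 Br53T2, 5 of 39 vBr53L and 1 of 53 pBr53L cells. Without these cells the genes at least 4 times apart went from 340 to 401 higher in tumors, 325 of them shared, and from 84 to 88 lower, 79 of them shared. The fold change moved by more than 1.5 times in 7 of 92 named genes without overlap, *Moxd1*, *Wnt7b*, *Vim*, *Mmp14*, *Ly6a*, *Jag1* and *Zeb2*, and kept its direction in each. *Dcn*, a fibroblast gene, reached at least 100 CPM in 6 of 39 vBr53L and 6 of 51 Br53T2 cells and in none of Br53T1 or pBr53L. Fibroblast markers summed to 6.29, 114, 579 and 2.37 CPM in the order used above, and *Dcn* alone made up 579 CPM in vBr53L and 87.5 CPM in Br53T2. The sum thus follows *Dcn*. Of the 5 fibroblast markers tested, 2 were higher in tumors, none lower and 3 overlapped, with a median log2 fold change of 6.69. *Pdgfra*, a growth factor receptor of fibroblasts, had 1.69 and 6.51 CPM in the tumors and 0 and 0.0596 CPM in the luminal mice, and the matrix gene *Fbln1* had 1.11 and 11.3 CPM in the tumors and 0 and 0 CPM in the luminal mice. Their part in the higher levels of collagen and matrix genes was not tested. *Lum* had no read in any of the 4 mice. Immune markers summed to 21.8, 51.9, 65.8 and 277 CPM, endothelial markers to at most 15.8 CPM, red cell markers to at most 38.5 CPM and adipocyte markers to at most 0.419 CPM.

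A last measure asked which genes were read in at least 50% of the thinned cells of both tumors and at most 10% of those of both luminal mice. There were 6, *Sparc*, *Col18a1*, *Postn*, *Lhfp*, *Tns4* and *Ttyh2*, of which the last 4 belong to no list and were chosen after their values were seen. *Postn*, the matrix protein periostin, was read in 17 of 30, 29 of 51, 3 of 39 and 3 of 53 cells. *Ttyh2* was read in 24 of 30, 27 of 51, 2 of 39 and 5 of 53 cells. No gene had the reverse pattern. At 50000 reads per cell, 2 of the 6 genes passed, and *Csn1s2a* passed in the reverse direction.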

How the data were processed

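Full-length cDNA of single mammary cells was sequenced from Fluidigm C1 chips, which had been imaged for doublets. The deposited values are raw read counts per gene and cell, without molecular identifiers, which the authors made with sickle, Trim Galore 0.4.1, STAR 2.5.3a on mm10 and Subread 1.5.3, per the labels' processing notes and the methods. The annotation and strand setting were not given in the sources used here. No further doublet caller was run, and 0 cells shared identical values. Counts were summed per mouse, the replicate, over 21004 genes and 11 mice in 5 arms, and divided by the total to give CPM.

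edgeR 4.0.16 (R 4.3.3) was fitted with TMM factors, filterByExpr by arm and quasi-likelihood tests at a Benjamini-Hochberg adjusted p under 0.05, and SE is the log2 fold change over the root of F. Alternatives used DESeq2 1.42.0, limma 3.58.1 on log2 of mean CPM plus 1, other scalings, no filter, fewer cells or mice, and, added after seeing the data, removal of cells with markers of other types, CPM over the TMM factor for the genes without overlap and the alternatives for the gap of 4 times. Seurat 5.3.0 clustered with 2000 variable genes, 10 principal components and a resolution of 0.7.

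Named genes were the 12 per direction with the widest gap, (lowest CPM of the higher group + 1) over (highest CPM of the lower group + 1), among genes with at least 10 CPM in both mice of the higher group, since no gene was called, together with *Brca1*, *Trp53* and members of 32 gene lists (468 genes, 434 tested). The comparison and the lists were chosen with earlier results of these data known. Gene coordinates are from GENCODE vM21 on mm10, in which 99.6% of symbols matched. The gene called for the difference of the tumor effect, 1 of the 24 genes with the widest gap and 1 listed gene are not reported here, though counts include them.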

Additional observations from a re-analysis of the deposited data

How the results depend on the processing

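The count of 0 genes called by edgeR was kept with RLE size factors, library size alone, luminal stage as a covariate, 30 cells per mouse, cells with at least 2000 genes, the 4 double mutant mice alone, and without cells bearing markers of other types. DESeq2 called 470 genes, in 136 of which the tumor and luminal mice overlapped, edgeR without a filter on low counts 308 of 19603, and limma on the mean over cells 2. Leaving out 1 mouse gave 0 to 4 genes: 0 without any of the 4 double mutant mice, 3 without BrT1 (*Cel*, *Tmc5* and *Slc28a3*), 4 without BrT2 (these and *Igfbp4*, named after its values were seen), and 1, *Cel*, without v53L or without p53L. Where a single tumor or luminal mouse was left, it was assumed to vary like the other groups. Over the gene lists, 43 genes were called by DESeq2, 83 without the filter, 2 by limma and 0 to 3 with 1 mouse left out. The difference of the tumor effect was called for 347 genes by DESeq2, 277 without the filter, and 1 to 130 with 1 mouse left out, with 130 without BrT2, 3 without BrT1 and 2 without Br53T1, vBr53L or vBrL. The cause of these differences was not tested. Genes at least 4 times apart numbered 714 to 1145 (higher) and 260 to 394 (lower) with 1 of the 4 mice left out, where fewer mice had to be apart by construction: 1145 and 260 without Br53T1, 1025 and 394 without Br53T2, 714 and 370 without vBr53L, and 1050 and 311 without pBr53L. With 30 cells per mouse they numbered 397 (253 of the 340 shared) and 99 (66 of the 84 shared), on the mean CPM over cells 358 (308) and 86 (77), and in cells with at least 2000 genes 339 (338) and 84 (84). Of the genes read widely in one group alone, 2 in tumors and 1 in luminal mice passed at 50000 reads per cell, against 6 and 0 at 100000. For 92 genes without overlap (the 24 with the widest gap and others named in the text), 1932 log2 fold changes under alternatives were computed, of which 1822 kept direction and side of the threshold, 6 kept direction but had no adjusted p in DESeq2, 103 passed it and 1 turned, *Gata3* at -0.065 without Br53T1. Their size was less stable. The fold change moved by more than 1.5 times in 47 of the 92 genes without Br53T1, 50 without Br53T2, 53 without pBr53L and 48 without vBr53L, as in *Rspo1* (-2.98 to -15.7), *Gjb6* (-6.84 to -16.7), *Btn1a1* (-7.69 to -17.5) and *Fabp3* (-10.4 to -17.8) without Br53T2, *Nkd2* (7.49 to 18.2) and *Cd36* (-18.7 to -12.1) without pBr53L, and *Hey1* (6.00 to 15.5) without vBr53L. In the first 4 the remaining tumor had no read. The median of all genes moved from 0.07 to 0.34 with library size alone. On CPM divided by the TMM factor, genes without overlap numbered 2954 higher and 2605 lower against 3784 and 1814, and no gene list had more than 3 members that moved between higher, lower and overlapping. No paired analysis was possible because the mice compared carry no pairing, with separate animals in each group and separate chips for double mutant tumors and luminal mice. In the difference of the tumor effect, Br53T2 and pBrL-2 shared chip SC6, and the fit did not model the chip. With 2 mice a group, depth limits the genes with few reads, whose ratios rest on 1 to 3 reads.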
